A study of Gallus gallus with 21 samples.

Results

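The cholinergic genes described here are the 10 genes chosen by symbol for acetylcholine synthesis, breakdown, receptors and receptor clustering, namely CHAT, SLC5A7, ACHE, RAPSN, CHRM2, CHRM3, CHRM4, CHRNA7, CHRNB2 and CHRNB3. All 10 were in the table of 18631 genes, and all 10 were among the 12614 genes kept by a filter of 0.5 CPM (reads per megaread of the library's total) in at least 7 libraries. Retina was collected from wild-type White Leghorn chickens reared under a standard light cycle, the control arm of a study of the eye's response to defocus imposed with lenses. Each of the 3 groups held 7 libraries, sampled 1 day, 3 days or 6 days into the experiment, which began at postnatal day 3. The treatment protocol gives the ages as postnatal days 4, 6 and 9. The labels name neither the sex of a bird nor whether libraries came from separate birds, so p-values measure the spread between these libraries, which may be technical in part. Single libraries are called by the code in their title, such as C10R.

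Among the cells of the retina that make acetylcholine are starburst amacrine cells, which take up choline, join it to an acetyl group and load the product into vesicles. The transmitter acts on nicotinic receptors, which are ion channels built from several subunits, and on muscarinic receptors, which signal through G proteins. In the developing retina nicotinic transmission carries spontaneous waves of activity, and in the mature retina starburst cells serve direction selectivity. In the chick, muscarinic antagonists are known to slow the growth of the eye.

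Library totals, estimated from the smallest step between low values, were 27.7 to 41.4 megareads, and the listed genes took 29.9% to 34.2% of them. That share differed with age, at 29.9% to 31.9% at 1 day, 30.8% to 33.3% at 3 days and 32.9% to 34.2% at 6 days. Its part in the results below was not tested. HINTW, which lies on the female-specific W chromosome, was at 121 to 148 CPM in 13 libraries, called W-positive here, and between 0.0286 and 0.549 CPM in the remaining 8, called W-negative. W-positive libraries numbered 3 among the youngest 7, 4 among the middle 7 and 6 among the oldest 7, so age and this division were partly confounded. For the 10 genes, some age comparisons whose call changed are also given with a covariate, the mean level of 35 W-linked genes. Among starburst cell markers besides CHAT and SLC5A7, MEGF10 averaged 22.5 CPM, ISL1 13.4 CPM, SOX2 2.25 CPM and FEZF1 0.0894 CPM. The 12 starburst markers, which include SLC18A3, SLIT2, FSTL4, RND3, NTNG1 and TENM3, summed to 292 to 312 CPM at 1 day. The sum was 296 to 330 CPM at 3 days and 304 to 338 CPM at 6 days. It is not read here as a measure of starburst cells. Of 11 tested from 1 to 6 days, 3 rose (CHAT, NTNG1 at +0.31 and TENM3 at +0.17) and 0 fell, where 30.0% of all genes rose. MEGF10 and ISL1 both changed by -0.11 and SOX2 by +0.16, and they did not pass. Over the same days 7 of 10 photoreceptor markers, 3 of 10 ganglion cell markers and 3 of 11 markers of amacrine cells at large rose. Of 8 Muller glia markers 0 rose, and none of all these fell. The counts hold for values as deposited. With libraries rescaled by the median of ratios, as below, 5 photoreceptor markers rose and 1 fell. Of the starburst markers 2 rose and 0 fell there, and of the ganglion cell markers 0 rose and 0 fell. Of the markers of amacrine cells at large 0 rose and 2 fell, and of the Muller glia markers 0 rose and 1 fell. In that fit 8.25% of all genes rose and 8.91% fell. The part of these markers in the results below was not tested. With such bulk samples, fewer cells of a type and less RNA per cell cannot be told apart.

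From 1 to 6 days, 3 of the 10 cholinergic genes passed the threshold, an adjusted p under 0.05 in limma, beside 32.5% of all genes tested. CHAT and CHRNB2 rose, as did 30.0% of all genes, and RAPSN fell, as did 2.57%. The test over all 3 ages passed for the same 3 genes, beside 38.6% of all genes. From 3 to 6 days CHAT rose and RAPSN fell, beside 22.3% of all genes called (17.4% up and 4.93% down), and from 1 to 3 days 0 of 10 passed, beside 10.1% of all genes. That count of 0 comes from limma, in which 2 genes, RAPSN and CHRNB2, had an unadjusted p under 0.05. The median log2 change of the 10 genes from 1 to 6 days was +0.13, against +0.14 for all genes. Because all genes lay at +0.14, libraries were also rescaled by the median of ratios, after which the median change of all genes was 0.00. CHAT, CHRNB2 and RAPSN passed there too and CHRNA7 fell as well, beside 17.2% of all genes called (8.25% up and 8.91% down). With quantile normalization 8.18% of all genes rose and 7.87% fell, with the W-linked covariate 21.4% rose and 2.07% fell, and in the 13 W-positive libraries alone 6.83% passed, none of the 10 among them by limma. The comparisons share groups of libraries and are not independent of each other.

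**Figure D1:**
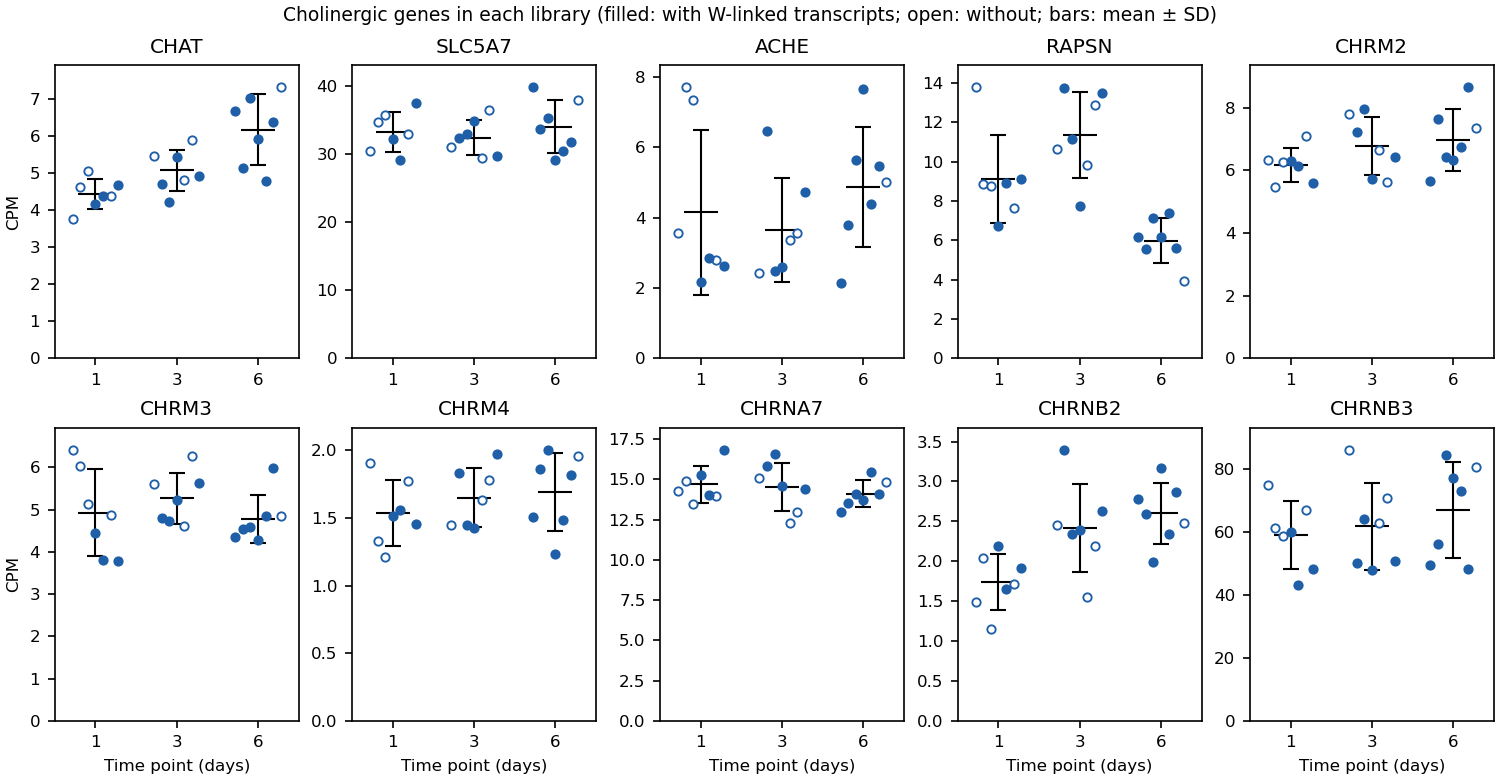
CPM of the 10 cholinergic genes (vertical axes, each from 0) in the 21 libraries by time point in days (horizontal axes). Points are libraries, filled where W-positive and open where W-negative, and bars are the mean ± SD of 7 libraries. CHAT and CHRNB2 stand higher at 6 days than at 1 day, and RAPSN at 6 days lies below every library of 3 days.

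CHAT, choline acetyltransferase, the enzyme that makes acetylcholine (chromosome 6, 3647190 to 3684341, minus strand, GRCg6a), ranged from 3.77 to 5.06 CPM at 1 day (median 4.39). It ranged from 4.23 to 5.91 CPM at 3 days (median 4.94) and from 4.80 to 7.33 CPM at 6 days (median 6.38). The groups overlapped at each step, but 6 of 7 libraries at 6 days lay above the highest library of 1 day. Means were 4.44 ± 0.410, 5.07 ± 0.564 and 6.18 ± 0.946 CPM (SD, n = 7 each). The rise from 1 to 6 days was +0.43 on the log2(CPM + 0.5) scale (SE 0.09, limma adjusted p = 0.00154), with 7 of 7 libraries above the mean of 1 day. It was +0.28 after median-of-ratios scaling (adjusted p = 0.0314), +0.25 with quantile normalization (adjusted p = 0.0683) and +0.39 in the 13 W-positive libraries alone (adjusted p = 0.0627), and the last pair did not pass. The rise from 3 to 6 days, +0.25 (SE 0.09, adjusted p = 0.0489), held when C10R, C18R, C41R, C43R, C58R or C63R alone was left out and was lost without any 1 of the other 15 libraries (adjusted p 0.0173 to 0.108 over the 21 omissions). It was also lost after median-of-ratios scaling (+0.18, adjusted p = 0.169). With the W-linked covariate the rise was +0.48 from 1 to 6 days (limma adjusted p = 0.00161) and +0.29 from 3 to 6 days (adjusted p = 0.0293). With that covariate and median-of-ratios scaling together, the rise from 3 to 6 days did not pass (+0.23, adjusted p = 0.0707). From 1 to 3 days CHAT changed by +0.17 (SE 0.09, adjusted p = 0.238).

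SLC5A7, the high-affinity choline transporter that supplies CHAT with its substrate (chromosome 1, 137342523 to 137368790, plus strand), stood at 29.1 to 37.5 CPM at 1 day (median 32.9). Its range was 29.5 to 36.4 CPM at 3 days (median 32.3) and 29.1 to 39.9 CPM at 6 days (median 33.7). The 3 ranges overlapped nearly whole. The change from 1 to 6 days was +0.03 (SE 0.07, adjusted p = 0.772), with a 95% interval of -0.12 to 0.18, and with median-of-ratios scaling it was -0.12 (adjusted p = 0.227). SLC18A3, the vesicular acetylcholine transporter, lies 1889 bases from CHAT on the same strand of chromosome 6. It averaged 1.24 ± 0.232, 1.18 ± 0.299 and 1.16 ± 0.371 CPM at the 3 ages and changed by -0.09 from 1 to 6 days (SE 0.14, adjusted p = 0.649, 95% interval -0.38 to 0.20).

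A ratio of a pair of genes within a library does not depend on how libraries are scaled, apart from the pseudocount. The log2 ratio of CHAT to SLC5A7 was -2.77 ± 0.09 at 1 day, -2.56 ± 0.14 at 3 days and -2.37 ± 0.17 at 6 days (SD, n = 7 each). Its mean was higher at 6 days than at 1 day by 0.40, with 7 of 7 libraries above the mean of 1 day (exact two-sided permutation test, p = 0.00117, adjusted p = 0.00699 over 12 ratio tests). It was higher at 3 days than at 1 day by 0.21 (exact p = 0.0105, adjusted p = 0.0315), a call lost without C10R, C17L, C19L, C22L or C23R alone (adjusted p up to 0.0594). From 3 to 6 days the difference was 0.19 (exact p = 0.0390, adjusted p = 0.0781), and it passed without C58R (0.23, adjusted p = 0.0350). The mean ratio of CHAT to SLC18A3 was higher at 6 days than at 1 day by 0.52, with 6 of 7 libraries above the mean of 1 day (exact p = 0.0192, adjusted p = 0.0462). That call was lost without any 1 of 10 libraries, C10R, C17L, C19L, C21R, C22L, C23R, C59L, C63R, C64L and C65L (adjusted p 0.0186 to 0.0923 over the 21 omissions). It was also lost with a pseudocount of 0.05 CPM (difference 0.60, adjusted p = 0.0676). In the W-positive libraries alone the ratio of CHAT to SLC5A7 was higher than at 1 day by 0.37 at 6 days and 0.13 at 3 days. Neither passed there (exact permutation, adjusted p = 0.214 and 0.343), nor did CHAT to SLC18A3 from 1 to 6 days (0.53, adjusted p = 0.214). Only 3, 4 and 6 libraries of the 3 ages enter those tests, which limits how small their p can be. No conclusion is drawn from these ratios not passing there. The gene pairs were chosen after the values of their genes were seen.

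Within an age, libraries with more CHAT also had more SLC5A7. With each library's median gene and each age mean subtracted, Pearson's r was 0.604 (permutation p = 0.00401, adjusted p = 0.0361 over 9 relations) and Spearman's rho was 0.662 (permutation p = 0.00142, adjusted p = 0.0128) over 21 libraries. Without the 2 libraries farthest from the median of CHAT, r was 0.653 over 19. None of the other 8 cholinergic genes had a relation with CHAT that passed in either measure, with r from -0.345 for CHRNB2 to 0.226 for CHRM3 and adjusted permutation p of 0.396 or more by Pearson. Among the 13 W-positive libraries r between CHAT and SLC5A7 was 0.401 (permutation p = 0.174, adjusted p = 0.523 over 9 relations) and rho was 0.473 (adjusted permutation p = 0.422), and 0 of the 9 relations passed by Pearson.

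**Figure D2:**
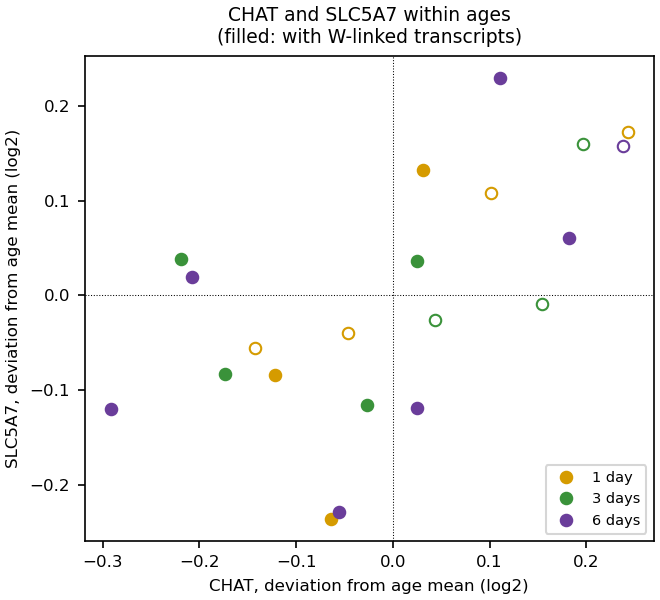
Deviation of CHAT (horizontal axis) and SLC5A7 (vertical axis) from the mean of their age group, in log2 units after subtraction of the library's median gene. Each of the 21 points is a library, coloured by age and filled where W-positive, and the points rise together from lower left to upper right (Pearson's r 0.604).

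ACHE, acetylcholinesterase, which breaks acetylcholine down in the cleft (chromosome 31, 2206372 to 2215402, plus strand), varied most of the 10 within an age. It ranged from 2.16 to 7.72 CPM at 1 day (median 2.85), 2.42 to 6.46 CPM at 3 days (median 3.35) and 2.14 to 7.66 CPM at 6 days (median 5.01). High libraries occurred at every age, C17L and C18R at 1 day, C33R at 3 days and C62L at 6 days, and the groups overlapped. These values rest on an estimated 73 to 297 reads per library. The SD within ages was 0.55 on the log2 scale, and 187 of 12614 genes, or 21 of the 1735 genes within 0.5 log2 units of its mean level, had a larger one. The change from 1 to 6 days was +0.27 (SE 0.26, adjusted p = 0.444, 95% interval -0.27 to 0.82), 0.16 to 0.43 with 1 library left out (adjusted p 0.200 to 0.680), and +0.73 in the 13 W-positive libraries (adjusted p = 0.132). From 3 to 6 days it was +0.37 (SE 0.26, adjusted p = 0.339), so that changes of moderate size in either direction were not detectable. Between W-positive and W-negative libraries ACHE differed by -0.26 (SE 0.23, adjusted p = 0.590, 95% interval -0.73 to 0.22).

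Of the muscarinic receptor genes, CHRM2 and CHRM4 encode receptors that couple to inhibitory G proteins and CHRM3 a receptor that couples to phospholipase C. None of them passed at any comparison of ages in limma. CHRM2 (chromosome 1, 57798522 to 57897280, minus strand) ranged from 5.47 to 7.09 CPM at 1 day (median 6.27), 5.63 to 7.96 CPM at 3 days (median 6.65) and 5.67 to 8.67 CPM at 6 days (median 6.75). Its groups overlapped, and the change from 1 to 6 days was +0.16 (SE 0.09, adjusted p = 0.184, 95% interval -0.03 to 0.35). CHRM3 (chromosome 3, 36486653 to 36660302, minus strand) ranged from 3.79 to 6.43 CPM at 1 day (median 4.86), 4.62 to 6.26 CPM at 3 days (median 5.24) and 4.28 to 5.99 CPM at 6 days (median 4.59). At 6 days 6 of its 7 libraries lay at 4.86 CPM or less, and C64L lay apart at 5.99 CPM. Its change from 1 to 6 days was -0.03 (SE 0.11, adjusted p = 0.873, 95% interval -0.24 to 0.19).

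CHRM4 (chromosome 5, 23869358 to 23884169, plus strand), whose product binds a snake toxin used in work on chick eye growth, ranged from 1.21 to 1.91 CPM at 1 day (median 1.51), 1.43 to 1.98 CPM at 3 days (median 1.64) and 1.23 to 2.01 CPM at 6 days (median 1.82), on an estimated 40.3 to 76.9 reads per library. The ranges overlapped throughout, and the change from 1 to 6 days was +0.11 (SE 0.10, adjusted p = 0.444, 95% interval -0.11 to 0.32). On the same strand, 1003 bases of its span, or 6.77%, overlap AMBRA1, which averaged 11.04 to 12.97 CPM in the 3 groups, and how reads of the shared stretch were assigned is not given in the sources used here.

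The nicotinic subunit genes differed among themselves. CHRNB2, the beta2 subunit that pairs with alpha4 in many neurons (chromosome 25, 2949573 to 2954364, plus strand), ranged from 1.15 to 2.19 CPM at 1 day (median 1.72). It ranged from 1.55 to 3.40 CPM at 3 days (median 2.39) and from 1.99 to 3.17 CPM at 6 days (median 2.60). At 3 and at 6 days, 6 of 7 libraries lay above every library of 1 day. Means were 1.74 ± 0.3495, 2.42 ± 0.551 and 2.60 ± 0.383 CPM (SD, n = 7 each), on an estimated 41 to 130 reads per library. The rise from 1 to 6 days was +0.48 (SE 0.13, limma adjusted p = 0.00580, 7 of 7 libraries above the mean of 1 day).

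That rise of CHRNB2 was +0.38 with the W-linked covariate (adjusted p = 0.0297) and +0.28, no longer past the threshold, with that covariate and median-of-ratios scaling together (limma adjusted p = 0.133). Among the 13 W-positive libraries it was +0.36 and did not pass (adjusted p = 0.133). The change from 1 to 3 days, +0.38 (SE 0.13, adjusted p = 0.0541), passed without C19L (+0.43, adjusted p = 0.0381) or without C42L (+0.46, adjusted p = 0.00978), the lowest library of 3 days. From 3 to 6 days it was +0.10 (SE 0.13, adjusted p = 0.611). CHRNA4, the alpha4 subunit, rose over the same days, from 1.04 ± 0.153 to 1.90 ± 0.512 CPM (+0.62, SE 0.15, adjusted p = 0.00286). That change did not pass with the W-linked covariate and median-of-ratios scaling together (+0.43, adjusted p = 0.0520), nor among W-positive libraries (+0.50, adjusted p = 0.0967). The log2 ratio of CHRNB2 to CHRNA4 was 0.53 ± 0.25 at 1 day and 0.39 ± 0.31 at 6 days, a difference of -0.14 that did not pass (exact permutation p = 0.383, adjusted p = 0.418).

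CHRNA7, whose subunit forms channels on its own (chromosome 10, 7109509 to 7149542, minus strand), ranged from 13.5 to 16.9 CPM at 1 day (median 14.3), 12.3 to 16.6 CPM at 3 days (median 14.6) and 12.98 to 15.5 CPM at 6 days (median 14.1). It had the smallest SD within ages of the 10 genes, 0.11 on the log2 scale. As deposited, its change from 1 to 6 days was -0.05 (SE 0.07, adjusted p = 0.542, 95% interval -0.19 to 0.08). Relative to the median gene it fell, by 0.21 with median-of-ratios scaling (adjusted p = 0.0234) and by 0.23 with quantile normalization (adjusted p = 0.0144). Of its span 70.8% is overlapped by MYO1E on the other strand, which averaged 6.24 to 6.97 CPM in the 3 groups. The library kit keeps the strand, but whether counting used it is not given in the sources used here.

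CHRNB3, an accessory subunit often found with alpha6, lies on chromosome Z (53700853 to 53711758, minus strand), of which male birds carry a pair and females a single copy. It ranged from 43.3 to 75.1 CPM at 1 day (median 60.0), 48.0 to 86.3 CPM at 3 days (median 63.02) and 48.5 to 84.6 CPM at 6 days (median 73.0). The change from 1 to 6 days was +0.17 (SE 0.15, adjusted p = 0.391, 95% interval -0.13 to 0.47), and +0.34 with the W-linked covariate, where it passed (adjusted p = 0.0413). With that covariate and median-of-ratios scaling together it was +0.21 and did not pass (adjusted p = 0.273). CHRNB3 was the only 1 of the 10 genes on chromosome Z.

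Between the 13 W-positive and the 8 W-negative libraries, with age in the fit, CHRNB3 was the only 1 of the 10 genes past the threshold, beside 4.67% of all genes (3.33% lower). The range was 43.3 to 84.6 CPM in W-positive libraries (median 50.8) and 58.7 to 86.3 CPM in W-negative ones (median 69.0). The difference was -0.40 (SE 0.10, 95% interval -0.61 to -0.19, limma adjusted p = 0.0151), and adjusted p was 0.00490 to 0.0498 when 1 library was left out. The W-positive libraries were spread, and at 6 days C59L, C62L and C63R stood at 84.6, 77.2 and 73.0 CPM, within the range of the W-negative libraries. Of 611 chromosome Z genes, 67.3% passed the threshold as lower in W-positive libraries, and the median difference of all 611 was -0.43. Among the other cholinergic genes, CHRM3 was lower by 0.22 (95% interval -0.39 to -0.04, limma adjusted p = 0.195). CHRNB2 was higher by 0.23 (95% interval 0.01 to 0.44, limma adjusted p = 0.274). Both intervals left out 0, but neither gene passed.

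CHRNA6, the alpha6 subunit gene 3763 bases from CHRNB3 on the other strand, separated fully on the same division. Its 13 W-positive libraries lay between 14.7 and 18.3 CPM and its 8 W-negative libraries between 28.9 and 34.7 CPM (-0.91, SE 0.04, adjusted p = 3.34e-14). The log2 ratio of CHRNB3 to CHRNA6 was 1.77 ± 0.262 in W-positive (n = 13) and 1.17 ± 0.158 in W-negative libraries (n = 8). The difference within ages was 0.504 (exact permutation test within age groups, p = 0.000117, the smallest that its 8575 divisions allow). This pair was chosen after the values of both genes were seen on this division, and the p is not adjusted for other tests. CHRNA7L, a further Z-linked subunit that RefSeq names CHRNA8, averaged 26.9 ± 2.73 CPM in W-positive and 31.1 ± 2.84 CPM in W-negative libraries (SD, -0.14, SE 0.05, adjusted p = 0.181), and passed without C34L (-0.17, adjusted p = 0.0435). With age CHRNA7L fell, from 30.4 ± 3.21 CPM at 1 day to 25.3 ± 1.27 CPM at 6 days (-0.25, SE 0.07, adjusted p = 0.00752). The fall was -0.19 with the W-linked covariate (limma adjusted p = 0.0377) and -0.40 with median-of-ratios scaling (adjusted p = 0.00220). With both together it was -0.32 (adjusted p = 0.00792). In the 13 W-positive libraries alone the change was -0.10 and did not pass (adjusted p = 0.504).

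**Figure D3:**
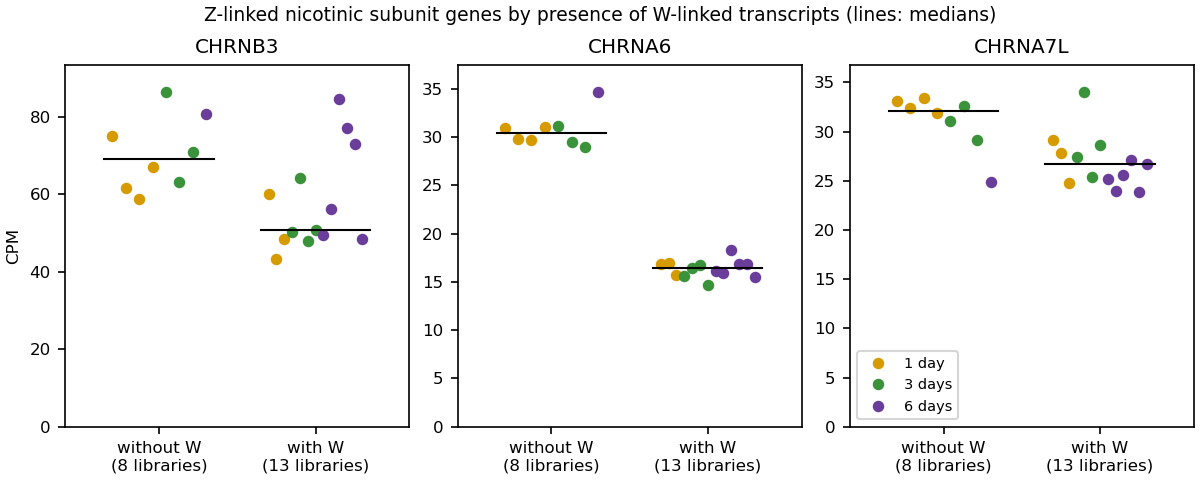
CPM (vertical axes, from 0) of the Z-linked nicotinic subunit genes CHRNB3, CHRNA6 and CHRNA7L in the 8 W-negative and the 13 W-positive libraries, coloured by age, with lines at the medians. CHRNA6 separates fully at 28.9 to 34.7 against 14.7 to 18.3 CPM, while CHRNB3 overlaps, with medians of 69.0 and 50.8 CPM.

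RAPSN, rapsyn, which clusters nicotinic receptors under the nerve terminal in vertebrate muscle (chromosome 5, 23093122 to 23108226, plus strand), had the largest change of the 10. It ranged from 6.73 to 13.8 CPM at 1 day (median 8.85), 7.74 to 13.8 CPM at 3 days (median 11.2) and 3.91 to 7.38 CPM at 6 days (median 6.14). All 7 libraries of 6 days lay below all 7 of 3 days, beside 1.05% of all genes with such a fall. At 1 day C10R lay apart at 13.8 CPM from the other 6. Means were 9.12 ± 2.24, 11.4 ± 2.18 and 5.98 ± 1.15 CPM (SD, n = 7 each).

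The fall of RAPSN from 3 to 6 days was -0.87 (SE 0.14, limma adjusted p = 0.000187), and 51 of 12614 genes had a more negative change. It passed under every alternative fitted, from -0.95 to -0.78 with 1 library left out and -0.79 in the W-positive libraries alone (adjusted p = 0.00313), where 2.89% of all genes fell. From 1 to 6 days the fall was -0.56 (SE 0.14, adjusted p = 0.00442, 7 of 7 libraries below the mean of 1 day). In the W-positive libraries alone it was -0.36 and did not pass (adjusted p = 0.167), and with the W-linked covariate it was -0.59 (adjusted p = 0.00801). From 1 to 3 days RAPSN changed by +0.31 (SE 0.14, adjusted p = 0.162), and this passed without C10R (+0.41, adjusted p = 0.0485). The second step differed from the first by -1.18 (SE 0.24, adjusted p = 0.00268), and RAPSN was the only 1 of the 10 genes to pass that test, beside 11.8% of all genes (5.48% in the same direction).

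The span of RAPSN overlaps CELF1 by 1676 bases and PSMC3 by 47 bases, both on the same strand, and its values were not whole multiples of 1 read in every library. CELF1 stood at 92.5 ± 4.88, 96.5 ± 7.71 and 87.0 ± 4.26 CPM, and fell from 3 to 6 days by 0.15 (SE 0.05, adjusted p = 0.0354). PSMC3 rose over the same step as deposited (+0.20, SE 0.06, adjusted p = 0.0247), but it missed the threshold relative to the median gene (+0.12 with median-of-ratios scaling, adjusted p = 0.246). The log2 ratio of RAPSN to CELF1 was -3.05 ± 0.30 at 3 days and -3.78 ± 0.24 at 6 days. Its mean was lower by 0.72, with 7 of 7 libraries of 6 days below the mean of 3 days (exact permutation p = 0.000583, the smallest possible, adjusted p = 0.00699). From 1 to 6 days the ratio was lower by 0.48 (exact p = 0.00699, adjusted p = 0.0280), a call lost without C10R (adjusted p = 0.0583). In the W-positive libraries alone the ratio changed by -0.67 from 3 to 6 days and by -0.27 from 1 to 6 days. Neither change passed there (exact permutation, adjusted p = 0.0571 and 0.229). Only 3, 4 and 6 libraries of the 3 ages enter those tests, which limits how small their p can be. From 3 to 6 days the unadjusted p was already the smallest that the divisions of 4 and 6 libraries allow. No conclusion is drawn from either change not passing there. The share of RAPSN reads that lie in the shared stretches was not tested.

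**Figure D4:**
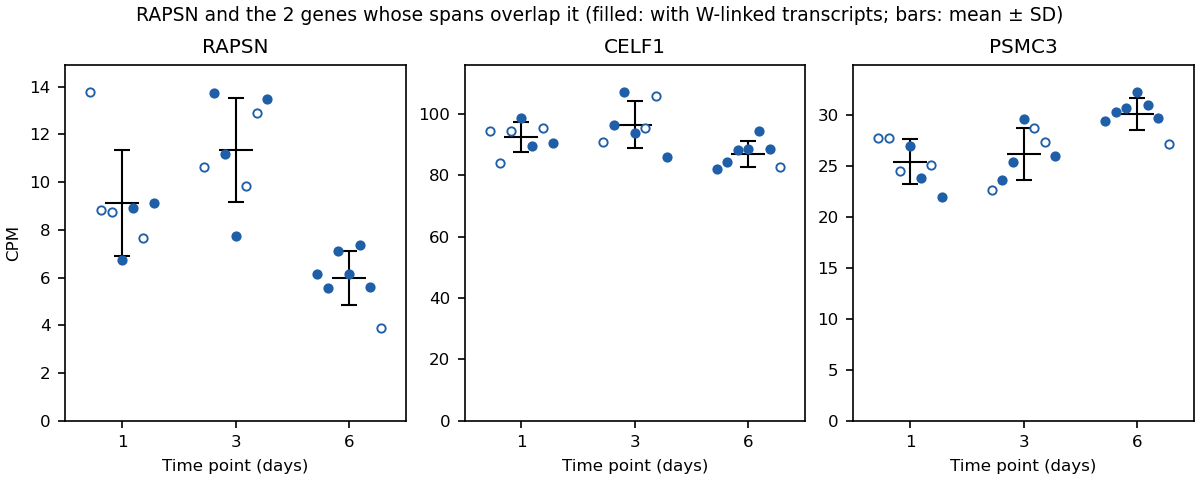
CPM (vertical axes, from 0) of RAPSN and of CELF1 and PSMC3, whose spans overlap it, by time point in days. Points are libraries, filled where W-positive, and bars are the mean ± SD of 7. RAPSN at 6 days lies at 3.91 to 7.38 CPM, below all libraries of 3 days, while CELF1 fell by 0.15 on the log2 scale and PSMC3 was higher by 0.20 as deposited, and by 0.12 without passing when scaled by the median of ratios.

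Markers of muscle, where rapsyn is best known, were low. Of 18 muscle genes on the list 9 were in the table, summing to 1.52 to 2.98 CPM at 1 day, 2.08 to 3.17 CPM at 3 days and 1.55 to 2.89 CPM at 6 days, with 0 calls among 3 tested. DES averaged 0.0368 CPM, ACTA1 0.110 CPM and MYL1 0.0210 CPM over the 21 libraries. The muscle receptor subunit CHRNA1 averaged 0.146 CPM. Markers of tissues next to the retina were summed in the same way. The 9 pigment epithelium markers summed to 4.82 to 16.2 CPM at 1 day, 8.63 to 18.2 CPM at 3 days and 8.22 to 12.5 CPM at 6 days. From 3 to 6 days there were 0 calls among 5 tested, beside 22.3% of all genes, with a median of -0.30. With median-of-ratios scaling 1 of the 5 fell, where 8.51% of all genes fell. RGR, an opsin of that tissue, averaged 3.00, 4.47 and 2.69 CPM at the 3 ages (-0.51 from 3 to 6 days, adjusted p = 0.432), and LRAT, a retinoid enzyme, 2.36, 2.885 and 2.26 CPM (-0.30, adjusted p = 0.106, and -0.36 with median-of-ratios scaling, adjusted p = 0.0497). Both had their highest mean at 3 days, but their rises from 1 to 3 days did not pass in limma. These were +0.56 for RGR (adjusted p = 0.430) and +0.24 for LRAT (adjusted p = 0.235). RPE65, also of that tissue, averaged 2.235, 3.69 and 3.61 CPM. From 1 to 6 days RPE65 rose (+0.60, limma adjusted p = 0.0306). Of the 5 tested markers of the tissue, 1 rose and 0 fell over those days, where 30.0% of all genes rose and 2.57% fell. RGR, LRAT, TYRP1 and DCT changed by +0.05, -0.05, -0.42 and -0.08 from 1 to 6 days and did not pass. Once libraries were rescaled by the median of ratios, RPE65 was at +0.47 and missed the threshold (adjusted p = 0.115). The other tested markers of the tissue, TYRP1 and DCT, changed by -0.00 and +0.01 from 1 to 3 days. From 3 to 6 days they changed by -0.42 and -0.09 (limma adjusted p = 0.195 and 0.750). The 8 markers of vessels and blood summed to 50.4 to 73.0, 42.9 to 63.3 and 52.6 to 74.9 CPM, and among them the endothelial genes TEK (0.1785, 0.4564 and 0.2126 CPM) and VWF (0.118, 0.2791 and 0.09634 CPM) were highest at 3 days. The 4 markers of vessels and blood that were tested did not include TEK and VWF. Of these 4, KDR and PECAM1 changed by -0.18 and -0.24 from 1 to 3 days and by +0.28 and +0.29 from 3 to 6 days. Only the later rise of KDR passed in limma (adjusted p = 0.0491), and it did not with median-of-ratios scaling (+0.20, adjusted p = 0.188). PTPRC and CSF1R changed by +0.11 and +0.23, then by -0.01 and -0.09, and did not pass. The part of these markers in the changes of RAPSN was not tested.

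Of 8 genes tested on a list of rapsyn partners of the neuromuscular junction, 5 rose and 0 fell from 1 to 6 days, where 30.0% of all genes rose and 2.57% fell, with a median of +0.20 against +0.14 for all genes. TK2 (+0.17, adjusted p = 0.0439), a mitochondrial thymidine kinase, is on that list in error and is no rapsyn partner, and without it 4 of 7 rose, a count added after the values were seen. DAG1, dystroglycan (+0.62, adjusted p = 0.00464), and MACF1, a cytoskeletal linker (+0.46, adjusted p = 0.00141), also rose with median-of-ratios scaling (+0.49, adjusted p = 0.0243, and +0.30, adjusted p = 0.0215). AGRN, agrin, which triggers clustering (3.10 ± 0.615 to 4.45 ± 0.966 CPM, +0.45, adjusted p = 0.0240), did not pass there (+0.32, adjusted p = 0.122) or with the W-linked covariate (adjusted p = 0.0681). SNTB1, a syntrophin (+0.24, adjusted p = 0.00232), was at +0.08 once libraries were rescaled and missed the threshold (adjusted p = 0.308). None of these 4 passed among W-positive libraries (adjusted p 0.0818 to 0.240).

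**Figure D5:**
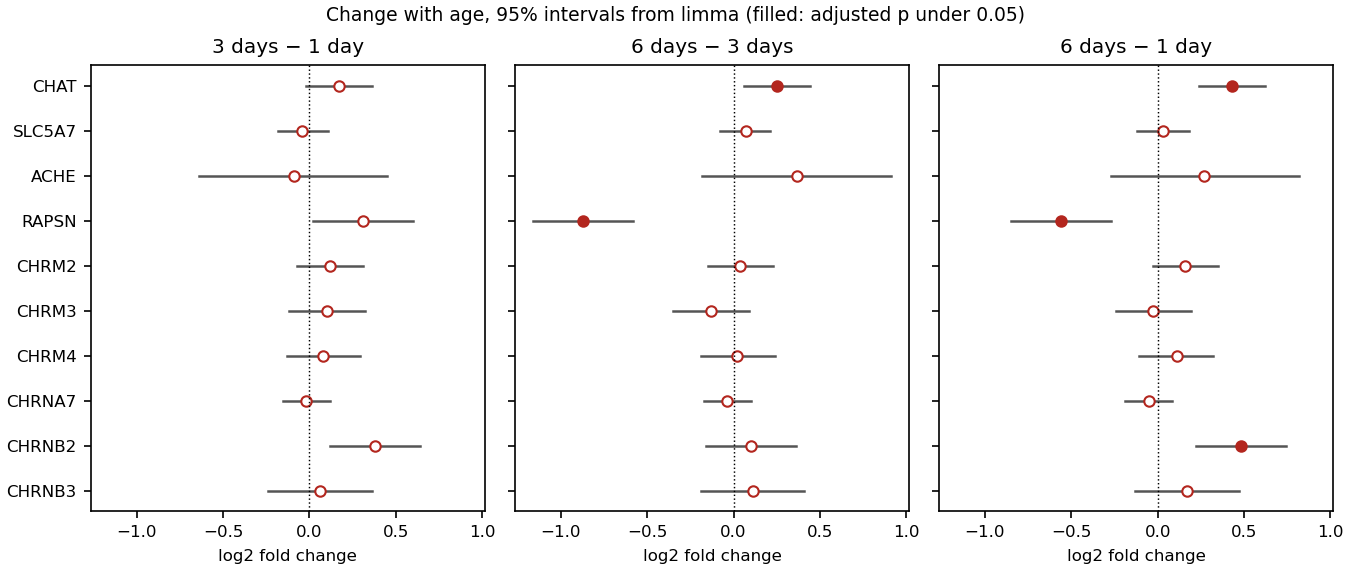
Log2 fold change (horizontal axes) of the 10 cholinergic genes between ages, with 95% intervals from limma over 7 libraries per group, filled where the adjusted p is under 0.05. CHAT and CHRNB2 lie to the right and RAPSN to the left at 6 days against 1 day, and the interval of ACHE is the widest.

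Other genes of cholinergic transmission were taken from lists by function. Of 8 further receptor subunit genes tested, 1 rose (CHRNA4) and 1 fell (CHRNA7L) from 1 to 6 days, with a median of -0.03, where 30.0% of all genes rose and 2.57% fell. With median-of-ratios scaling 1 rose and 2 fell (median -0.18), where 8.25% of all genes rose and 8.91% fell. CHRNA5, the alpha5 subunit, was the further fall there (-0.23, adjusted p = 0.0332). Of 14 genes of acetylcholine release, breakdown and choline handling, 4 rose and 0 fell (median +0.04), again where 30.0% of all genes rose. With median-of-ratios scaling 1 rose and 1 fell, where 8.25% and 8.91% of all genes did. PCYT1A, which makes CDP-choline for phosphatidylcholine, went from 13.1 ± 1.82 CPM at 1 day to 23.1 ± 4.22 CPM at 3 days (+0.78, SE 0.11, adjusted p = 5.68e-05) and stood at 20.03 ± 1.91 CPM at 6 days. Its paralog PCYT1B (+0.37, adjusted p = 0.00400), the methyltransferase PEMT (+0.31, adjusted p = 0.0443) and choline kinase CHKA (+0.13, adjusted p = 0.0429) rose from 1 to 6 days, none of them past the threshold with median-of-ratios scaling. PEMT and CHKA did not pass with the W-linked covariate either (adjusted p = 0.163 and 0.0723).

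Of 11 genes of nicotinic receptor assembly and modulation, 0 passed from 1 to 6 days by limma, where 32.5% of all genes did, and 2 had an unadjusted p under 0.05. These were CRELD2, which lies in the endoplasmic reticulum (+0.27, adjusted p = 0.0674), and RIC3, a chaperone of receptor assembly (-0.14, adjusted p = 0.0609), which fell with median-of-ratios scaling (-0.29, adjusted p = 0.00390). The gene of the list highest in CPM, the calcium sensor VSNL1, stood at 229 ± 19.98 and 236 ± 10.4 CPM (+0.05, adjusted p = 0.552). Of 21 genes of muscarinic signalling, 10 rose and 0 fell (median +0.10), where 30.0% of all genes rose and 2.57% fell. With median-of-ratios scaling 3 rose and 5 fell, where 8.25% and 8.91% of all genes did. GNAO1, the abundant inhibitory G protein of neurons (29.9 ± 1.94 to 41.05 ± 4.78 CPM, +0.44, adjusted p = 0.000242), GNAI2, a further inhibitory subunit (+0.51, adjusted p = 0.00295), and RGS8, which shortens G protein signals (+0.45, adjusted p = 0.000343), also rose with that scaling. GRK3, a receptor kinase (+0.31, adjusted p = 0.00111), did not pass there (+0.16, adjusted p = 0.0878).

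The genes with levels most like those of 3 cholinergic genes were listed by Pearson's r over the 21 libraries after subtraction of the library median. Genes of at least 5 CPM were compared, symbols that start with LOC were left out, and age means were not subtracted. Those most like RAPSN were RECK (r 0.908), STAB1 (r 0.883) and EPGN (r 0.875). For CHAT they were MPRIP (r 0.716), SMARCC1 (r 0.705) and IP6K1 (r 0.680), and for SLC5A7 they were TDRD12 (r 0.718), STK24 (r 0.693) and GIT2 (r 0.688). These values describe likeness, with the libraries, their age groups and their depth shared by every gene. Each is among the highest of many genes compared, and how high r would be for unrelated genes was not tested.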

How the data were processed

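Total RNA of 21 chicken retina libraries, depleted of ribosomal RNA with a kit that keeps the strand per the labels' protocols, gave 1 deposited table of CPM values. STAR, Partek and GRCg6a are named in the submitters' processing notes; versions, annotation and counting rules are not given in the sources used here. An offset of 0.0001 CPM in every deposited value was subtracted. Under 1 CPM, 94.1% to 95.2% of values were whole multiples of 1 step per library within 0.1 step, so totals in reads are estimates and no count test was used. Genes of at least 0.5 CPM in 7 libraries were kept (12614), and log2(CPM + 0.5), which understates the change of low genes, was fitted on the 3 ages in limma 3.58.1 under R 4.3.3, with Benjamini-Hochberg adjustment over all genes kept. The fit was also run on simulated counts. These had the same spread setting for every gene, no W-linked division and no shift of all genes with age, so they do not test those features. Ratios of a pair of genes used exact two-sided permutation tests over 3432 divisions, and correlations 100000 permutations. Libraries were divided at 10 CPM of HINTW, a division made from the data and not by the labels. Symbols of 15419 genes matched RefSeq, used for names and chromosomes only, and no sequence was used.

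The cholinergic genes, the gene lists and the tests were chosen with earlier results of these data known. Named genes were the 10 cholinergic genes, from each list at most 4 genes past the threshold between 1 and 6 days, lowest adjusted p first (where none passed, the gene highest in CPM), and the 3 genes most like CHAT, SLC5A7 and RAPSN. Other genes named, such as SLC18A3, CHRNA6 and genes that overlap a cholinergic gene, were chosen after values were seen. Alternatives covered the pseudocount, the filter, scaling, weights, W-linked and title-letter covariates and leaving out each library.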

Additional observations from a re-analysis of the deposited data

Results flagged for a closer look

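RAPSN in library C10R, at 13.8 CPM, lay apart from the other 6 libraries of 1 day, which stood at 6.73 to 9.13 CPM. CHRM3 in library C64L, at 5.99 CPM, lay apart from the other 6 libraries of 6 days, which stood at 4.28 to 4.86 CPM. Both were found by Dixon's gap test in 30 groups of 7 libraries, in which chance alone marks about 1 group in 20. The change of RAPSN from 3 to 6 days differed from its change from 1 to 3 days by -1.18 on the log2 scale (SE 0.24, limma adjusted p = 0.00268).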

How the results depend on the processing

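No paired analysis was possible because no number in the titles occurs in more than 1 group. The number of cholinergic genes past the threshold from 3 to 6 days was 2 of 10, beside 22.3% of all genes. It was 1 with quantile normalization (17.6% of all genes), median-of-ratios scaling (17.1%) or the W-positive libraries alone (9.53%). With array weights, no filter, a fit of the 2 groups alone or the title letter as covariate it was also 1. The W-linked covariate with median-of-ratios scaling gave 1 too, and leaving out 1 library gave 1 to 2. In the W-positive libraries alone the number was 0 of 10 from 1 to 6 days by limma (6.83% of all genes) and 1 over all ages (13.1%). There 0 relations with CHAT passed, and fewer libraries enter that fit. With 1 library left out the number of cholinergic genes was 0 to 1 from 1 to 3 days and 3 throughout from 1 to 6 days. With every library in, 10.1% and 32.5% of all genes passed in these comparisons.

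Of all genes, 4103 passed from 1 to 6 days, against 2165 with median-of-ratios scaling, 2025 with quantile normalization, 1361 with that scaling and the W-linked covariate, and 862 in the W-positive libraries alone. Over all ages 4865 passed, against 2962 and 1647 under the last pair of settings. In the W-positive libraries alone, 270 passed from 1 to 3 days, 1202 from 3 to 6 days and 567 for the difference between the steps. Leaving out 1 library gave 847 (without C33R) to 2153 (without C42L) from 1 to 3 days, 2214 to 3205 from 3 to 6 days and 3398 to 4290 from 1 to 6 days.

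Changes that turned sign were not past the threshold in either fit, and the cause was not tested. With median-of-ratios scaling these were CHRNB3 from 1 to 3 days (-0.02), SLC5A7 (-0.01), CHRM2 (-0.03) and CHRM4 (-0.04) from 3 to 6 days, and SLC5A7 (-0.12) and CHRM4 (-0.01) from 1 to 6 days. With quantile normalization they were CHRM4 from 1 to 3 days (-0.02), SLC5A7 (-0.03) and CHRM2 (-0.06) from 3 to 6 days, SLC5A7 (-0.10), CHRM2 (-0.02) and CHRM4 (-0.01) from 1 to 6 days, the step difference of CHRM4 (0.03) and CHRNB3 (-0.01), and RAPSN between W-positive and W-negative libraries (-0.01). With the W-linked covariate CHRM3 from 1 to 6 days was 0.07. With that covariate and median-of-ratios scaling, CHRM2 (-0.01), CHRM4 (-0.01) and CHRNB2 (-0.02) from 3 to 6 days and SLC5A7 from 1 to 6 days (-0.08) turned. In the W-positive libraries alone, ACHE from 1 to 3 days (0.50), CHRM4 (-0.02) and CHRNB2 (-0.03) from 3 to 6 days, CHRM3 from 1 to 6 days (0.22) and the step difference of ACHE (-0.26) turned, and with the title letter that of CHRNB3 (-0.01). With 1 library left out, ranges that crossed 0 were ACHE -0.23 to 0.07, CHRNB3 -0.03 to 0.12 and CHRNA7 -0.05 to 0.02 from 1 to 3 days, CHRM2 -0.01 to 0.08 and CHRM4 -0.01 to 0.08 from 3 to 6 days, SLC5A7 -0.01 to 0.07 and CHRM3 -0.08 to 0.04 from 1 to 6 days, and RAPSN -0.09 to 0.13, CHRM2 -0.07 to 0.00 and CHRM4 -0.07 to 0.00 between W-positive and W-negative libraries. Among the cholinergic genes, CHRM4, CHRNB2 and ACHE had the fewest estimated reads in a library, as few as 40.3, 41 and 73. The part of depth in the results for these genes was not tested.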

Other observations

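ACHE was followed further after its spread was seen. The genes with levels most like it over the 21 libraries were sought among genes of at least 5 CPM, again without LOC symbols. They were KCNA1, a potassium channel gene (r 0.713), AHCYL1 (r 0.687) and TNFRSF21 (r 0.679), with libraries, age groups and depth shared by every gene. CHRNB3 also had a wide spread within ages, an SD of 0.31 on the log2 scale against a median of 0.11 for the 1035 genes of like level, of which 27 had a larger one. That SD includes the difference of CHRNB3 between W-positive and W-negative libraries (-0.40), which were mixed within ages. At 6 days its 6 W-positive libraries ranged from 48.5 to 84.6 CPM.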
